A study of Mus musculus with 8 samples.

Results

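The genes that write, read and erase DNA methylation were examined in bulk RNA-seq of the adult mouse whole brain. The 9 genes are the writers Dnmt1, Dnmt3a and Dnmt3b, the readers Mbd1, Mbd2 and Mbd3, and the erasers Tet1, Tet2 and Tet3. The rule takes them by gene symbol, with no threshold on their values, and all 9 were found among the 24343 genes of the deposited table. The samples were whole brains of 3 C57BL/6NCrl mice, an inbred strain with no transgene or treatment named in the labels, 56–62 days of age and kept under a single condition. Mouse 1 and mouse 2 gave 3 libraries each and mouse 3 gave 2, so there were 8 libraries. The sources used here do not explain the library numbers, and repeat libraries of an animal are not independent animals. Sex is not among the labels, and the study used both sexes. Values are FPKM, that is, sequenced fragments divided by transcript length and by the number of fragments mapped in the library, and the FPKM of a gene is the sum over its transcripts. Means are means over the 3 mice of each mouse's mean, with the SD between mice (n = 3).

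In mammals, DNA methylation is carried mainly by cytosines that precede a guanine (CpG). Dnmt3a and Dnmt3b place methyl groups on unmethylated DNA, and Dnmt1 copies the pattern to the new strand after replication. Mbd1 and Mbd2 carry a domain that binds methylated CpG, whereas Mbd3 carries a related domain with little affinity for methylated CpG and belongs to the chromatin-remodelling complex NuRD, in which Mbd2 takes its place in other copies of the complex. The Tet enzymes oxidize the methyl group, which is a step towards its removal. Adult neurons are known for high levels of oxidized methylcytosine and for methylation outside CpG, which Dnmt3a places.

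Dnmt3a and Dnmt1 have transcripts that begin at distant start sites, and sequences before such starts are shown. The deposited estimates divided Dnmt3a between its long and short transcripts. The upstream start of Dnmt1 had 26.4% of the gene in library 1 of mouse 1 and at most 0.131% in every other library. Each sequence is the 250 bases upstream of a RefSeq transcript start on GRCm38.p6, written 5′ to 3′ on the strand of the gene, with every CG in capitals. The windows lie at chr12:3806730-3806979 (+) and chr12:3891494-3891743 (+) for the long and short transcripts of Dnmt3a, and at chr9:20952980-20953229 (−) and chr9:20959889-20960138 (−) for the shared and the upstream start of Dnmt1.
Dnmt3a long transcript NM_007872: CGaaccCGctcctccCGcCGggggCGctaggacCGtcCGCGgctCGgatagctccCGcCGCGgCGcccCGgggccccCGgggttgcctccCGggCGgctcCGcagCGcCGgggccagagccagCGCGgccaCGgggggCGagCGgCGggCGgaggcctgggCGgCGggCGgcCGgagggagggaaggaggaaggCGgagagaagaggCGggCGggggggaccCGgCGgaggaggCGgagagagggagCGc
Dnmt3a short transcript NM_153743: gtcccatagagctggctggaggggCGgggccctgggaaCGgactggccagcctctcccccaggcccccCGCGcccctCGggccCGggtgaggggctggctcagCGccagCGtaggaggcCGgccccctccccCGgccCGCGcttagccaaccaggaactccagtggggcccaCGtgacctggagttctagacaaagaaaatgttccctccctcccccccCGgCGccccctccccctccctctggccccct
Dnmt1 shared start NM_010066 and NM_001199431: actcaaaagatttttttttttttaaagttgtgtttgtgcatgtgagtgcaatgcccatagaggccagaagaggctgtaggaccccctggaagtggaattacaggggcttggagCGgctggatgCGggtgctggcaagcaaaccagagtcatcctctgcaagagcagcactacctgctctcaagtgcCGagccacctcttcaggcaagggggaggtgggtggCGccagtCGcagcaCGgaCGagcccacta
Dnmt1 upstream start NM_001199432: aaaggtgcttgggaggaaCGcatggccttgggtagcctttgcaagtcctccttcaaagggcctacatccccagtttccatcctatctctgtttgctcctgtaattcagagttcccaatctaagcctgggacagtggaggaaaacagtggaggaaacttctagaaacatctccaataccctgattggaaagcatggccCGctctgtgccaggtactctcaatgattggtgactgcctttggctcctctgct
The long Dnmt3a start followed 38 CG and the short start 15, whereas the shared Dnmt1 start followed 7 and the upstream start 2. The last 16 bases of the window before the short Dnmt3a start lie in an exon of another Dnmt3a model in GENCODE, and the other 3 windows overlap no annotated exon. CG is its own reverse complement, so both strands hold the same number.

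Windows were found in the RefSeq table for 7 of the 9 genes, 11 windows in all, of which 10 stand before a start that the deposited transcripts use. The median of 32817 windows was 6 CG, and 92.1% of them held at least 1. Tet2 had the most CG among the 11 windows, 51, and 0.0670% of all windows held as many or more. The second long start of Dnmt3a followed 40 CG, and 1.31% of all windows held as many or more. The counts were 21 for Dnmt3b, 17 for Tet3, 14 for Mbd3 and 26 for a Dnmt1 start downstream of the shared one. A Tet1 start that the deposited transcripts do not use had 15. The number of CG in a window is a property of the sequence and not a measurement of its methylation.

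By summed FPKM, readers were the most abundant of the 3 roles, followed by writers and erasers. The readers summed to 66.8 ± 6.89 FPKM (SD, n = 3 mice), the writers to 16.8 ± 2.98 and the erasers to 9.17 ± 1.48. This order held in each of the 8 libraries. With only the highest transcript of each gene, the writers summed to 8.06 FPKM and the erasers to 9.07, so the order of these roles turned, whereas readers stayed highest at 53.6. The ratio of writers to erasers varied little, at 1.83 ± 0.0530, and lay between 1.70 and 1.94 in all 8 libraries. The ratio of readers to writers varied more, at 4.21 ± 1.41. It lay between 3.28 and 3.52 in the 6 libraries of mice 1 and 2, and was 4.39 and 7.29 in libraries 1 and 2 of mouse 3.

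Ordered by mean level, the genes were Mbd3, Mbd2, Dnmt3a, Dnmt1, Mbd1, Tet3, Tet2, Tet1 and Dnmt3b. Neighbours were called separate where the ranges of the 3 mouse means did not overlap and the order held in all 8 libraries, and 5 of the 8 neighbouring pairs met this. Mbd3 was 1.84-fold above Mbd2, Mbd2 was 2.53-fold above Dnmt3a, Mbd1 was 1.45-fold above Tet3, Tet2 was 2.81-fold above Tet1, and Tet1 was 6.05-fold above Dnmt3b. Dnmt3a and Dnmt1 were not separate, with a ratio of means of 1.03 and Dnmt3a higher in only 3 of 8 libraries. Dnmt1 was above Mbd1 in 7 of 8 libraries, and Tet3 was above Tet2 in 8 of 8, but in both pairs the mouse means overlapped.

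**Figure D1:**
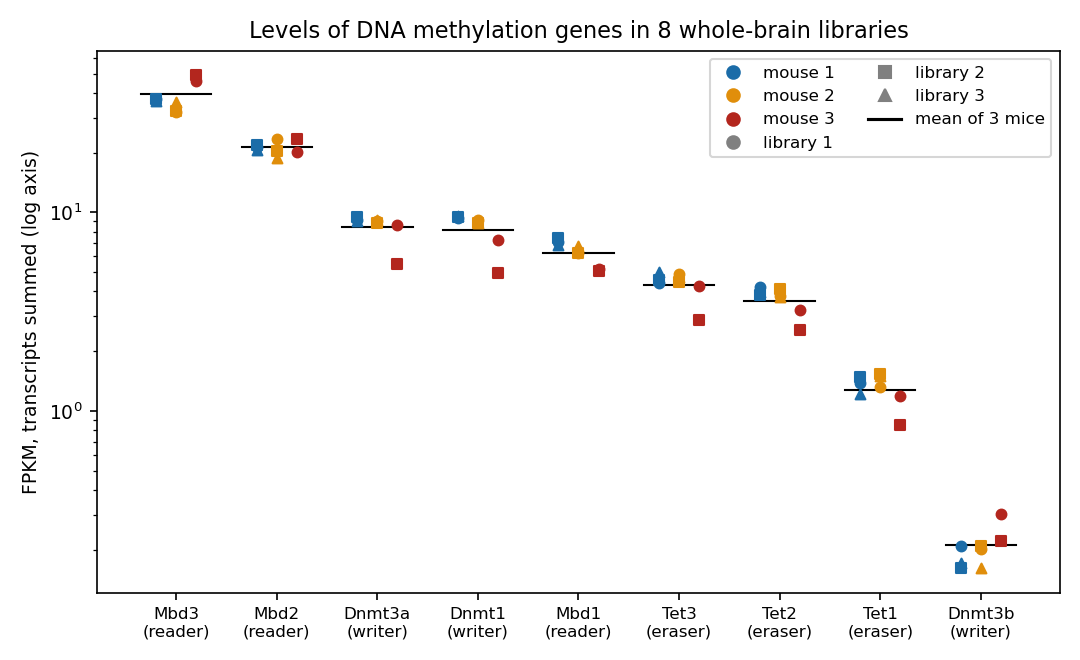
FPKM of each of the 9 genes, transcripts summed, on a log axis. Points are the 8 libraries, coloured by mouse and shaped by library number, and lines are means of the 3 mice. The genes span from 0.211 FPKM for Dnmt3b to 39.3 for Mbd3, and library 2 of mouse 3 is the lowest of the 8 libraries for Dnmt1, Dnmt3a, Mbd1 and the 3 Tet genes.

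Among the writers, Dnmt1, the maintenance enzyme (chr9:20907206-20959888, − strand), had a mean of 8.18 ± 1.81 FPKM. Its level was 9.34, 9.52 and 9.57 FPKM in the libraries of mouse 1, 9.18, 8.87 and 8.84 in those of mouse 2, and 7.29 and 4.93 in those of mouse 3. Both libraries of mouse 3 were below the other 6. Dnmt3a, the main de novo enzyme of neurons (chr12:3806980-3914443, + strand), had nearly the same mean, 8.43 ± 1.21 FPKM. It was read at 9.17, 9.49 and 9.05 FPKM in mouse 1, 9.01, 8.87 and 9.20 in mouse 2, and 8.59 and 5.49 in mouse 3. Library 2 of mouse 3 stood far below the rest for Dnmt3a, while library 1 was just below the lowest library of the other mice.

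Dnmt3b, the de novo enzyme best known from early development (chr2:153649449-153687730, + strand), was close to the lower limit of the data. Its mean was 0.211 ± 0.0450 FPKM, and its levels were 0.209, 0.162 and 0.171 FPKM in mouse 1, 0.201, 0.208 and 0.162 in mouse 2, and 0.304 and 0.222 in mouse 3. The coverage of Dnmt3b was 0.331 to 0.576 reads per base, against 11.5 to 21.8 for Dnmt3a. Dnmt3a was 42.1 ± 13.7 times as abundant as Dnmt3b, with a range of 24.7 to 58.6 over the libraries. Dnmt3b was higher than 36.5% of all genes in the table, and Dnmt3a than 72.5%.

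The readers differed more in level. Mbd3 (chr10:80392539-80399531, − strand) was higher than 93.1% of all genes, with a mean of 39.3 ± 7.22 FPKM. Its libraries were at 37.5, 37.1 and 36.5 FPKM in mouse 1, 32.0, 32.3 and 36.0 in mouse 2, and 45.7 and 49.0 in mouse 3, so that both libraries of mouse 3 were above the other 6. Mbd2 (chr18:70568292-70626131, + strand) was the steadiest of the 9 genes between mice, with a mean of 21.3 ± 0.484 FPKM and a coefficient of variation of 2.27%. Its levels were 21.3, 21.9 and 20.6 FPKM in mouse 1, 23.4, 20.4 and 18.9 in mouse 2, and 20.2 and 23.5 in mouse 3. The mice overlapped fully for Mbd2, and libraries of the same mouse differed by more than the mouse means did. Mbd1 (chr18:74268288-74282684, + strand), which binds methylated CpG and represses promoters, had a mean of 6.22 ± 1.02 FPKM. Its values were 7.09, 7.46 and 6.84 FPKM in mouse 1, 6.25, 6.24 and 6.75 in mouse 2, and 5.17 and 5.05 in mouse 3, again with both libraries of mouse 3 below the others.

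All 3 erasers were detected in every library. Tet3 (chr6:83362374-83441678, − strand) had a mean of 4.30 ± 0.647 FPKM, with 4.38, 4.56 and 4.98 FPKM in mouse 1, 4.89, 4.47 and 4.74 in mouse 2, and 4.24 and 2.87 in mouse 3. Tet2 (chr3:133463677-133544390, − strand), whose protein lacks the DNA-binding CXXC domain found in forms of the other two, was at 3.59 ± 0.619 FPKM, with 4.21, 3.85 and 3.97 in mouse 1, 3.80, 4.11 and 3.76 in mouse 2, and 3.21 and 2.55 in mouse 3. Tet1 (chr10:62804570-62880014, − strand), best known from embryonic stem cells, was lowest at 1.28 ± 0.226 FPKM, with 1.38, 1.48 and 1.22 in mouse 1, 1.33, 1.53 and 1.49 in mouse 2, and 1.19 and 0.848 in mouse 3. Both libraries of mouse 3 were below the other 6 for each Tet gene, and library 2 was the lower of them. The same held for 21.7% of all genes tested. The proportions among the erasers were steadier than their levels, with a Tet3 to Tet2 ratio of 1.20 ± 0.0330 and a Tet3 to Tet1 ratio of 3.39 ± 0.111. Single libraries ranged from 1.04 to 1.32 and from 2.92 to 4.07 for these ratios.

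The 9 genes had 24 deposited transcripts, and the authors' program divided the reads of a gene among them, which makes a single transcript's value less certain than the gene's. For Dnmt3a, the short transcript begins 84764 bases downstream of the long one and encodes a shorter protein that lacks part of the N terminus. The long transcripts together made up 68.2% ± 8.71 of Dnmt3a and the short one 31.8% ± 8.71. In FPKM, the short transcript was at 2.75, 3.90 and 3.72 in mouse 1, 0.541, 2.97 and 2.38 in mouse 2, and 2.81 and 2.19 in mouse 3. Library 1 of mouse 2 stood out with a short share of 6.01%, and the other 7 libraries had 25.9% to 41.1%. The pair of long transcripts start 180 bases apart, and their estimates traded places between libraries: NM_007872 ranged from 0.0198% to 71.3% of Dnmt3a and NM_001271753 from 0.0608% to 58.9%. Their sum ranged from 58.9% to 94.0%. The sequence before NM_007872 and that before the short transcript are printed above.

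For Dnmt1, the pair of transcripts that share a start, NM_010066 and NM_001199431, differ by 3 nucleotides in length and made up 93.4% ± 5.03 of the gene. NM_010066 alone had 49.1% ± 5.13 and NM_001199431 had 44.3% ± 10.1. The transcript NM_001199432, which begins 6909 bases upstream of the shared start, was chosen for mention after its values were seen. It was estimated at 2.47 FPKM in library 1 of mouse 1, with deposited bounds of 1.94 and 2.99, and at 0.0125 FPKM or less in the other 7 libraries, where the highest upper bound was 0.0497. In that library it took 26.4% of Dnmt1 and the shared start 64.9%, while the summed level of the gene, 9.34 FPKM, was close to the other libraries of mouse 1. An oocyte promoter upstream of the somatic start is known for Dnmt1, and whether this transcript uses it was not examined.

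The transcripts of the other genes with several forms share their start. The shorter transcript of Mbd3, NM_001306143, had 66.4% ± 2.88 of the gene and the longer, NM_013595, had 33.6% ± 2.88, with a range of 57.7% to 80.5% for the shorter over the libraries. These transcripts differ by 96 nucleotides. For Tet1, NM_001253857 had 91.9% ± 13.8, and its lowest share was 49.8% in a library of mouse 1. Dnmt3b had 9 transcripts, of which NM_001271747 and NM_001271745 had 51.1% ± 5.24 and 40.5% ± 11.2 as means over the mice, but between libraries they ranged from near 0 to 99.7% and to 99.98% of the gene, respectively.

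**Figure D2:**
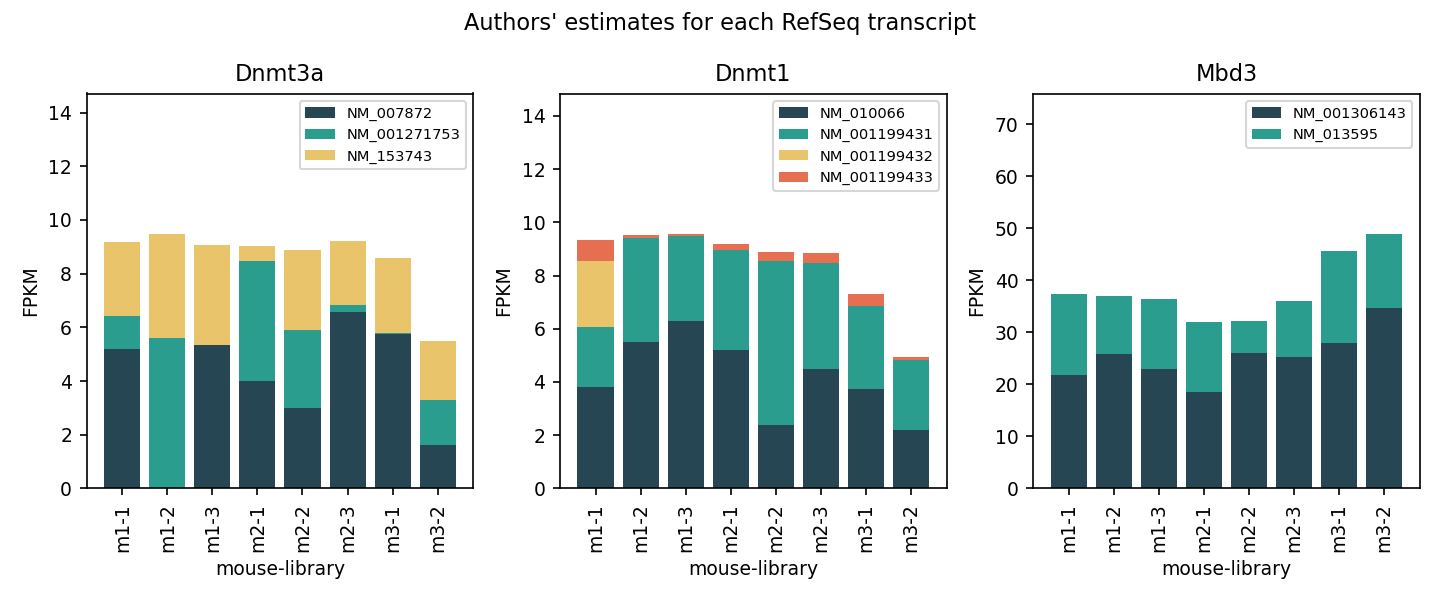
FPKM of each RefSeq transcript of Dnmt3a, Dnmt1 and Mbd3, stacked from 0, in the 8 libraries named by mouse and library number (m1-1 is library 1 of mouse 1). The short Dnmt3a transcript NM_153743 is at 0.541 FPKM in m2-1 and at 2.19 to 3.90 elsewhere, and the upstream Dnmt1 transcript NM_001199432 is visible only in m1-1.

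The mice were compared by the moderated F-test of limma, run on log2(FPKM + 1) for all 13001 genes whose mean reached 1 FPKM, with Benjamini-Hochberg adjustment over them. The test uses the libraries of a mouse as its repeats, so it describes these 3 mice and measures only the spread between libraries, which may be technical. It called 3310 genes, which is 25.5% of those tested, and 4 of the 8 tested members of the writer, reader and eraser group. Dnmt3b was below 1 FPKM and was not tested. Differences below are mouse 3 minus the mean of mice 1 and 2 on the log2(FPKM + 1) scale, which understates changes of low genes. Each adjusted p belongs to the F-test for any difference among the 3 mice. It is not a test of the mouse 3 difference printed beside it, which was not tested by itself.

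Mbd3 was higher in mouse 3, by 0.42 ± 0.076 (SE), and Dnmt1, Mbd1 and Tet2 were lower. The adjusted p for Mbd3 was 0.0144 by limma. Dnmt1 fell by 0.54 ± 0.115 in mouse 3 (limma adjusted p = 0.0268), Mbd1 fell by 0.34 ± 0.071 (adjusted p = 0.0201) and Tet2 fell by 0.36 ± 0.085 (adjusted p = 0.0398). The differences of Dnmt3a, Tet3 and Tet1 were −0.36, −0.33 and −0.26, with limma adjusted p of 0.142, 0.126 and 0.130, and that of Mbd2 was 0.05 with an adjusted p of 0.885. Both libraries of mouse 3 were below the other 6 for 6 of the 8 genes, against 21.7% of all genes tested, and above them for 1, against 26.5%. Between mice, the coefficient of variation had a median of 16.8% over the 8 genes and of 12.3% over all genes tested.

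The number of calls changed with the libraries of mouse 3. Without library 2, limma called 0 of the 8 genes and 126 of all genes (0.969%), with 3 of the 8 and 24.6% of all genes at an unadjusted p under 0.05. Without library 1 of mouse 3 it called 7 of the 8, all but Mbd2, and 29.4% of all genes. In both fits the remaining library of mouse 3 is assumed to vary like those of the other mice. Without library 2 the difference was −0.30 for Dnmt1, −0.33 for Mbd1, −0.23 for Tet2 and 0.37 for Mbd3, and −0.08 for Dnmt3a. Leaving out any 1 of the 3 libraries of mouse 1 left 1 call, Mbd3, and 12.9% to 14.7% of all genes, and leaving out library 2 or 3 of mouse 2 left 3, without Tet2, and 18.1% and 21.6% of all genes. With the highest transcript only, Mbd1 alone passed, where 16.9% of all genes did. With a replicate block the adjusted p of Tet2 was 0.0660 by limma, and 23.0% of all genes passed.

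Differences of mouse 3 also moved with transcript length over the whole table. The median difference was 0.31 over 3968 genes under 2000 nucleotides, −0.03 over 6786 genes of 2000 to 5000, and −0.22 over 2247 genes above 5000. Mbd3 and Mbd2 have transcripts of 1547 to 1850 nucleotides, whereas those of Dnmt1, Dnmt3a and the Tet genes measure 5251 to 14082. Mbd1, with 2672 nucleotides, was lower in mouse 3 by more than the median of its length class. Dnmt1, Dnmt3a and the Tet genes also lay below the median of their class. Mbd3 lay above the median of its class and Mbd2 below it. With each library's trend over length removed, limma called 2 of the 8 genes, Dnmt1 (−0.40, adjusted p = 0.0404) and Mbd1 (−0.37, adjusted p = 0.0137), and 20.6% of all genes. The difference of Mbd3 was then 0.20 with a limma adjusted p of 0.133, and those of Tet2 and Dnmt3a were both −0.09, with adjusted p of 0.440 and 0.602. Tet3 was at −0.04 and Tet1 at 0.09 in that fit, and neither passed. The same removal brought the ratio of readers to writers in mouse 3 from 5.84 to 4.53, against 3.61 and 3.70 in mice 1 and 2. The ratio of writers to erasers became 1.82 ± 0.139. When every library was brought to an equal sum (TPM, a unit in which the levels of a library are shares of its total), the median difference of all genes was −0.26 instead of 0.02, and the share of called genes that were lower in mouse 3 was 86.9% instead of 44.6%. On that scale limma called 42.3% of all genes and 6 of the 8 genes, the Tet genes, Dnmt1, Dnmt3a and Mbd1, with differences of −0.59 to −0.87, all below the median of all genes. Mbd2, at −0.25, lay close to that median, and Mbd3, at 0.13, did not pass.

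**Figure D3:**
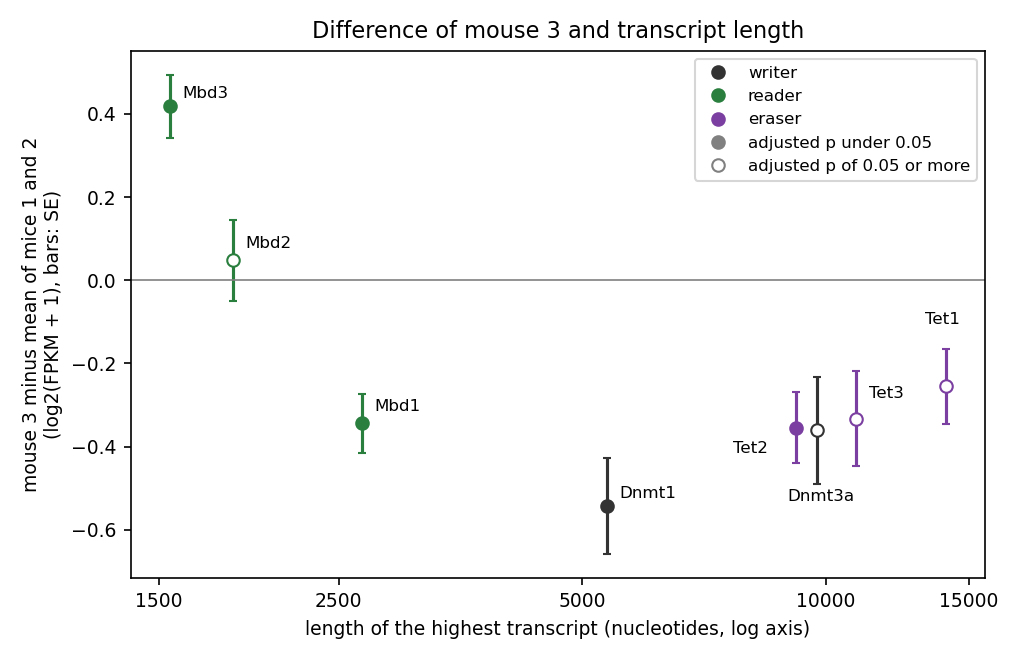
Difference of mouse 3 from the mean of mice 1 and 2 (log2(FPKM + 1), error bars are SE) against the length of the highest transcript of each of the 8 genes tested, on a log axis. Colours give the role, and filled points passed an adjusted p of 0.05. The 2 genes under 2000 nucleotides lie above 0 and the 6 longer genes lie below 0. With the length trend removed Tet1 was at 0.09 and Mbd2 at −0.10, and with TPM Mbd2 was at −0.25.

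Markers of brain cell types were checked in the same libraries. Neuronal markers (Snap25, Rbfox3 and Syt1) summed to 1152 to 1281 FPKM in mouse 3 and 1352 to 1466 in the other mice, and 2 of the 3 passed the limma test, both lower in mouse 3. The oligodendrocyte markers Mbp and Mog summed to 2888 to 3558 FPKM in mouse 3 and 1287 to 1409.5 in the others, with 1 of 2 passing, and astrocyte markers (Aqp4, Slc1a2 and Gja1) to 476 to 521 and 346 to 376, with 3 of 3 passing. Markers of precursors, microglia, endothelium, choroid plexus and blood passed in 2 of 13 cases, Cx3cr1 (higher in mouse 3) and Kl (lower). The endothelial markers Cldn5 and Flt1 summed to 27.8 to 30.3 FPKM in mouse 3 and 15.2 to 22.2 in the others, and neither passed. For precursors, microglia, choroid plexus and blood, the sums of mouse 3 overlapped those of the other mice. Of 2 young neuron markers, Dcx was lower in mouse 3 (limma adjusted p = 0.0122) and Sox11 did not pass. Alb, a liver gene, was at 0 in every library, and Krt5 and Myh6, of epithelium and heart, were at 0.0129 and 0.129 FPKM. The part of these cell markers and of transcript length in the differences of the methylation genes was not tested. In bulk samples, fewer cells of a type and less RNA per cell cannot be told apart.

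Partners of these genes were described from 5 lists of 49 genes, of which 44 were tested and 10 passed, 22.7% against 25.5% of all genes. Of the 10, 4 were higher in mouse 3 and 6 lower, whereas with TPM 23 passed, 0 higher and 23 lower, among 5493 calls over all genes of which 718 were higher and 4775 lower. Leaving out library 2 of mouse 3 left 0 calls among the list genes, with 10 of 44 at an unadjusted limma p under 0.05 against 24.6% of all genes. Leaving out any 1 library of mouse 1 left 4, where 12.9% to 14.7% of all genes passed. Leaving out library 2 of mouse 2 left 5, where 18.1% of all genes passed. Usp7, Mbd5, Rbbp4 and Cxxc5 passed in 7 of the 8 fits that leave out a library.

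The list of maintenance partners, which also holds Dnmt3l and Trdmt1, had 8 genes, of which 5 were tested and 1 passed. Usp7, a deubiquitinase that acts on Dnmt1, was at 27.1 ± 4.68 FPKM and fell by 0.44 in mouse 3 (limma adjusted p = 0.0162). Uhrf1, which brings Dnmt1 to newly copied DNA, was at 0.271 ± 0.125 FPKM, and its relative Uhrf2 at 9.68 ± 1.47. The markers of dividing cells Mki67, Top2a and Cdk1 were at 0.206, 0.443 and 0.186 FPKM, in the range of Uhrf1. Pcna, the replication clamp that also serves DNA repair, was highest of the list at 34.7 ± 6.39 FPKM. Dnmt3l, the cofactor of Dnmt3a in germ cells, was lowest at 0.0539 ± 0.0484 and was listed at 0 in both libraries of mouse 3. Trdmt1, a relative of the Dnmt genes that methylates transfer RNA, was at 1.92 ± 0.0232 FPKM.

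Of 7 other genes of methyl-CpG-binding protein families, all were tested and 2 passed. Zbtb4 was highest at 18.0 ± 0.306 FPKM and Mbd4, a glycosylase that removes deaminated methylcytosine, lowest at 2.14 ± 0.385. Mbd5 (7.75 ± 1.78 FPKM) and Mbd6 (6.00 ± 1.50 FPKM), whose form of the domain is not known to bind methylated CpG, fell by 0.55 and 0.59 in mouse 3 (limma adjusted p = 0.0119 and 0.0276). The call of Mbd6 held in 3 of the 8 fits that leave out a library and was lost with no filter (limma adjusted p = 0.0502).

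All 13 subunits of NuRD were tested and 2 passed. The helicase Chd3 was highest at 65.8 ± 1.74 FPKM and Gatad2a lowest at 6.15 ± 0.527, so that the mean of every subunit in the list lay above those of the erasers. Chd4, the helicase related to Chd3, was at 26.9 ± 5.51 FPKM and fell by 0.54 in mouse 3 (limma adjusted p = 0.0388). Rbbp4, a histone-binding subunit, was at 30.0 ± 6.94 FPKM and higher by 0.53 in mouse 3 (limma adjusted p = 0.0223). With TPM, Rbbp4 did not pass (0.24, limma adjusted p = 0.0885). The call of Chd4 was lost with the length trend removed (−0.35, limma adjusted p = 0.109), with a pseudocount of 0.1, with no filter and with the highest transcript only, and it held in 2 of the 8 fits that leave out a library.

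Among 14 genes of demethylation and repair, 12 were tested and 3 passed. Ogt, the sugar transferase that binds Tet proteins, was highest at 40.9 ± 8.27 FPKM and fell by 0.53 in mouse 3 (limma adjusted p = 0.0248), and Cxxc5, a CXXC-domain protein, was at 27.6 ± 4.36 FPKM and fell by 0.36 (adjusted p = 0.0143). Idh2, a mitochondrial enzyme that makes the cosubstrate of the Tet enzymes, was at 16.1 ± 2.99 FPKM and higher by 0.42 (adjusted p = 0.0416). The call of Idh2 held in 3 of the 8 fits that leave out a library. It was lost with TPM, the length trend removed, a pseudocount of 0.1, no filter or the highest transcript only. That of Ogt held in 4 of those 8 fits and was lost with the highest transcript only or a replicate block (limma adjusted p = 0.0614). Tdg, the glycosylase that excises the oxidized bases made by Tet enzymes, was at 4.44 ± 0.520 FPKM, close to Tet3, and Neil3 was lowest at 0.0514 ± 0.0311.

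All 7 genes of methyl donor supply were tested and 2 passed. Ahcyl1 (120 ± 15.6 FPKM) and Ahcyl2 (38.4 ± 4.65 FPKM), relatives of the enzyme that clears the product of methylation, were higher in mouse 3 by 0.31 and 0.28 (limma adjusted p = 0.0369 and 0.0415). With TPM or the highest transcript only neither passed, and the difference of Ahcyl2 with TPM was −0.01. Their calls held in 2 and 1 of the 8 fits that leave out a library, and that of Ahcyl2 was lost with a replicate block (limma adjusted p = 0.0738) or a pseudocount of 0.1. Mtr, methionine synthase, was lowest at 1.93 ± 0.0556 FPKM.

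**Figure D4:**
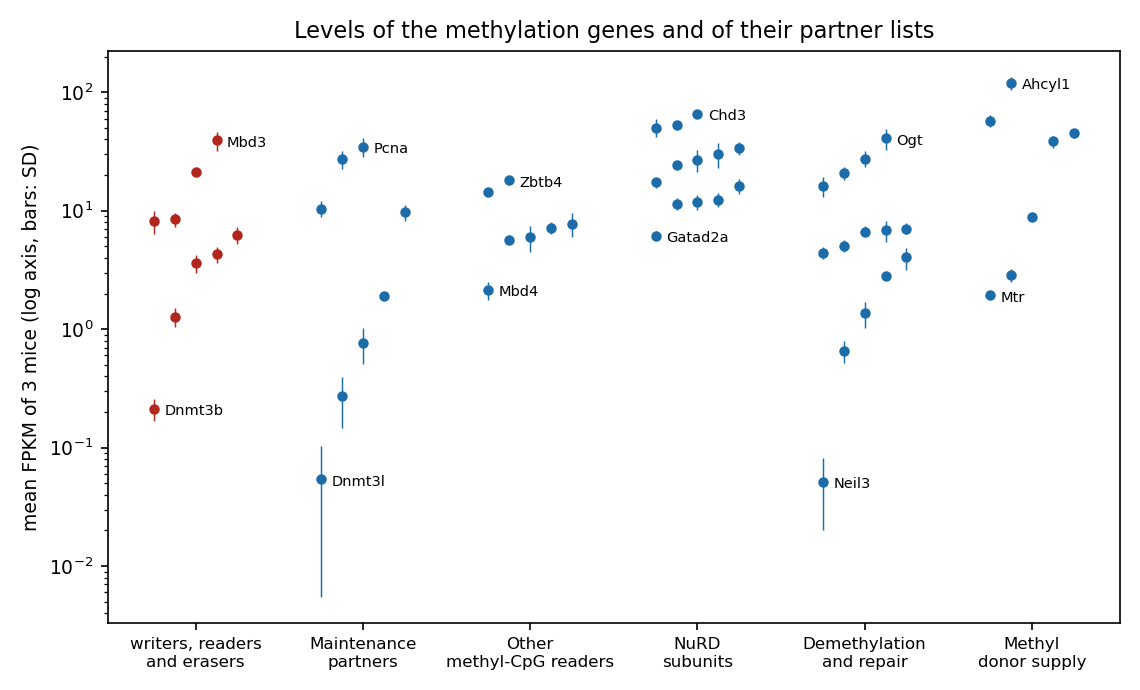
Mean FPKM of the 3 mice, with the SD as bars, on a log axis, for the 9 writers, readers and erasers and the 5 partner lists. The highest and lowest gene of each group is named: Mbd3 at 39.3 and Dnmt3b at 0.211 FPKM among the 9, and Ahcyl1 at 120 FPKM highest of the lists.

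Genes whose levels moved most like Dnmt3a, Mbd3 and Tet3, the writer, reader and eraser with the highest mean, were taken by Pearson's r of log2(FPKM + 1) over the 8 libraries among the genes tested. For Dnmt3a these were Pelp1 (r = 0.995), Cacna1e (r = 0.992) and Prkar1b (r = 0.992). For Mbd3 they were Mdp1 (r = 0.991), Smim10l2a (r = 0.991) and Hey1 (r = 0.985), and for Tet3 they were Jade2 (r = 0.989), Ankrd50 (r = 0.988) and Gse1 (r = 0.987). The 8 points come from 3 mice and share the offset of mouse 3, so these values describe likeness over these libraries only. In GENCODE, Dnmt3a shares 133 exon bases with the antisense gene Dnmt3aos, and the counting of strand was not given in the sources used here, so reads of the pair could not be told apart there.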

How the data were processed

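Whole-brain RNA (RNAqueous Micro kit) was made into Kapa mRNA HyperPrep libraries, which were read on a NextSeq500. The submitters' processing notes name TopHat, Cufflinks and the mm10 build, with no versions. The deposited table holds the authors' FPKM estimates for 34535 RefSeq transcripts, with confidence bounds, and a deposited coverage, a signal of read depth per base. Coverage multiplied by length gave 1.31 to 2.02 gigabases per library (median 1.76). No counts were used and the read length is not given in the sources used here, so no counting intervals were computed, and the spread between mice or libraries gives the precision. Genome coordinates are those of the deposited table, and promoter windows are from RefSeq (GRCm38.p6), read against GENCODE exons.

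Transcripts of a gene were summed, averaged per mouse and then over the 3 mice. Genes whose mean reached 1 FPKM were tested with limma 3.58.1 (R 4.3.3) on log2(FPKM + 1), a pseudocount of 1, with an adjusted p threshold of 0.05, and the script was tested on simulated data. Libraries are repeats within a mouse. Alternatives were a pseudocount of 0.1, no filter, TPM, removal of each library's loess trend with transcript length, the highest transcript only, a replicate block, and leaving out each library. The genes and partner lists were chosen with earlier results of these data known. Named in the text were the 9 genes, list genes that passed the test, further list genes (Uhrf1, Uhrf2, Dnmt3l, Mbd4, Mbd5, Mbd6, Tdg and Trdmt1), the highest and lowest of each list, the 3 genes most like the highest member of each role, and transcripts with at least 10% of a gene. Protein sequences and promoter windows of Mbd1 and Mbd2 were not used here. The values of some list and marker genes are not reported here.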

Additional observations from a re-analysis of the deposited data

Results flagged for a closer look

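Among 28 measures of the 8 libraries (levels of the 9 genes, 3 totals by role, 15 transcripts, and the long Dnmt3a transcripts together), 8 had a library whose gap to the nearest other library was large for the range (above Dixon's 95% limit for 8 samples). Chance flags about 1 in 20 measures where the 8 samples are independent, but these libraries come from 3 mice. The measures also share reads, so they are not independent, and the number of flags is a description only. The transcripts are those with at least 10% of their gene and NM_001199432. That transcript was added after its values were seen, so its flag was known beforehand.

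Library 2 of mouse 3 was low in 5 of these. Dnmt3a was at 5.49 FPKM, with 8.59 in the next library, and Tet3 was at 2.87 FPKM, with 4.24 in the next, which counts for the gene and for its only transcript. The writers summed to 10.6 FPKM there, with 16.2 in the next library, and the erasers to 6.27, with 8.64 in the next.

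The other 3 came from different libraries. Dnmt3b was at 0.304 FPKM in library 1 of mouse 3, with 0.222 in the next. The Dnmt1 transcript NM_001199431 was at 6.19 FPKM in library 2 of mouse 2, with 3.99 in the next, and the upstream Dnmt1 transcript NM_001199432 was at 2.47 FPKM in library 1 of mouse 1, with 0.0125 in the next. The causes were not tested.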

How the results depend on the processing

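The number of genes that limma called between mice, 3310, was 5493 with TPM, 2171 with the highest transcript only and 126 to 3873 with a library left out. The members called, 4, were 2 without the length trend (Dnmt1 and Mbd1), 1 with the highest transcript only (Mbd1) and 0 to 7 with a library left out. Leaving out any 1 library of mouse 1 left Mbd3 alone, where 12.9% to 14.7% of all genes passed. Without the length trend 20.6% of all genes passed, and with the highest transcript only 16.9%. The list genes called, 10, were 23 with TPM, 5 with the highest transcript only and 0 to 14 with a library left out. Without library 2 of mouse 3, 10 of 44 list genes and 24.6% of all genes had an unadjusted p under 0.05, and Ahcyl2 changed sign with TPM (−0.01). The summed levels were 8.06 FPKM for writers, 53.6 for readers and 9.07 for erasers with the highest transcript only, which put erasers above writers, and TPM, another unit, gave 49.7, 193 and 27.0 for writers, readers and erasers. The mean over 8 libraries left all 9 genes in the same place in the order. Between mice, correlations of library deviations were 0.00276 to 0.107 for the same library number and −0.135 to 0.0645 for different numbers. These ranges overlap, and the libraries of mouse 3 give mirrored values, so whether the numbers pair the samples was not settled. A replicate block left 2995 genes, 3 members and 11 list genes called. The ratios of role totals without the length trend or a library were added after seeing the data. The lowest coverage among the 9 genes was that of Dnmt3b, 0.331 to 0.576 reads per base.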
